A study of Arabidopsis thaliana with 12 samples.

Results

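The cnu1 line of Arabidopsis thaliana was compared with the wild type Col-0 across all 27827 loci of the array table, with 3 arrays of each genotype, which makes 6 of the 12 arrays of the series. The samples were chosen by their titles (cnu1 A, B and C, and Col-0 A, B and C), and no measured value entered the choice. Seedlings of cnu1 are in the Col-0 background, carry the PMEIox transgene, which overexpresses the pectin methylesterase inhibitor PMEI5 (AT2G31430), and are known from the study to carry in addition a mutation of the brassinosteroid receptor gene BRI1 (AT4G39400). Col-0 carries neither. The comparison asked which transcripts stay or become different from the wild type when transgene and receptor mutation are combined. The remaining 6 arrays, 3 of PMEIox (the transgene alone) and 3 of cnu2 (the transgene with a mutation known to lie in the receptor-like protein gene RLP44, AT3G49750), entered the estimate of the spread and are given side by side where they show how cnu1 differs from them. No array measured the BRI1 mutation without the transgene, so an effect of the mutation alone cannot be told apart from its effect in transgenic seedlings. Each genotype is represented by a single named line, and the promoter of the transgene is not given in the sources used here.

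Whole seedlings had been plated on medium without sugar, kept cold for 48 h, given white light (100 µmol per square metre and second) for 6 h and then held in darkness at 22 °C for 4 days. Each array therefore pools hypocotyl, cotyledons and root, and fewer cells of a type cannot be told apart from less RNA per cell. The replicates were described as biological and harvested in successive weeks. P-values rest on the spread between replicates within genotypes, pooled over all 12 arrays, and the main fit did not model the week. The table gives log2 intensities from 0.785 to 13.9 (median 5.47) and does not say which transcripts were detected. A level below 2.83, where 5 floral and pollen markers stood on average, is called near background, and the mean of 14.8% of loci lay under it. The meristem marker STM stood between 6.11 and 6.55 in the 6 arrays, while the stem cell markers CLV3 and WUS lay between 1.45 and 2.47, near background. Across loci, which do not count as replicates, Pearson's r between arrays was 0.991 to 0.993 within a genotype and 0.987 to 0.991 between cnu1 and Col-0.

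Pectin is made in a methylated form, and pectin methylesterases remove methyl groups from it in the wall, where the freed charges allow chains to be crosslinked. PMEI proteins block these enzymes. Brassinosteroids are growth hormones that bind BRI1 at the cell surface, and the signal passes through a kinase cascade to the transcription factors BZR1 and BES1, which activate growth genes and repress the genes of brassinosteroid synthesis such as DWF4 and CPD. In dark-grown seedlings brassinosteroids are known for driving hypocotyl elongation.

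The transgene locus was examined first, because it checks the labels. PMEI5 read 8.19, 5.05 and 4.49 in Col-0 A, B and C, and 12.62, 12.69 and 12.62 in cnu1 A, B and C. All 3 cnu1 values lay far above the wild type, but Col-0 A stood apart from the other Col-0 arrays at this locus. What sets Col-0 A apart there was not tested. The log2 difference was 6.73 ± 0.67 (SE, limma adjusted p = 0.00109), a 106-fold higher level, and 7.87 without Col-0 A (adjusted p = 2.35e-10). From PMEIox, cnu1 differed by -0.02 at this locus (95% interval -1.47 to 1.43, adjusted p = 0.994). The locus is set apart in the lists of genes that follow. The number of called loci is given with and without Col-0 A, while most other counts include this array.

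BRI1 itself read 7.56, 7.58 and 7.66 in Col-0 and 7.73, 7.75 and 7.94 in cnu1. The cnu1 values were slightly above those of the wild type without overlap, and the log2 difference of 0.21 ± 0.09 (SE) did not pass the test (adjusted p = 0.357). The transcript level of a gene says nothing about a change in its protein sequence, so this value does not check the mutation. RLP44 stood near background in Col-0 at 2.57, 3.26 and 2.58 and read 2.65, 3.28 and 3.24 in cnu1, overlapping values with a log2 difference of 0.25 ± 0.20 (SE, adjusted p = 0.616).

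Across the table, 173 loci passed the test between cnu1 and Col-0 at an adjusted p under 0.05, which is 0.622% of the loci tested. Of these, 100 were higher in cnu1 (0.359% of loci, 99 without the transgene locus) and 73 were lower (0.262%). At least 2-fold differences among the called loci numbered 35 higher and 21 lower, together 0.201% of loci. Most transcripts were close to the wild type, with 96.1% of all loci within 0.5 on the log2 scale of Col-0 and a median standard error of a log2 difference of 0.137. The values of the genotypes did not overlap at any of the 173 called loci, and they did not overlap at 19.6% of all loci. Called loci made up 39 of 7206 on chromosome 1, 32 of 4403 on chromosome 2, 36 of 5545 on chromosome 3, 22 of 4203 on chromosome 4 and 44 of 6363 on chromosome 5.

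**Figure D1:**
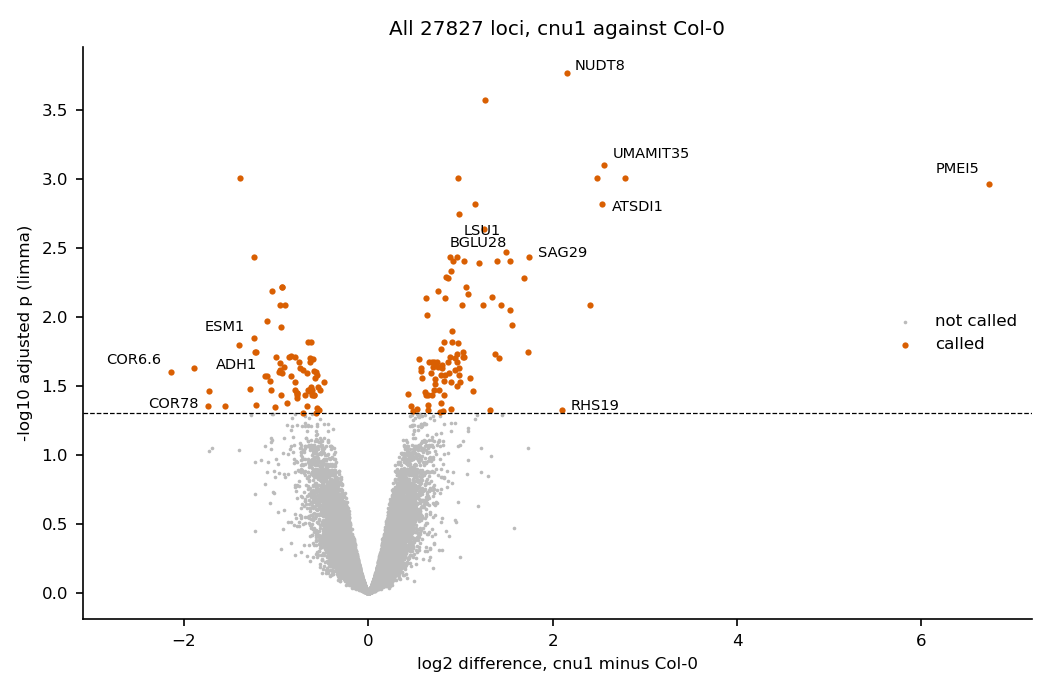
Log2 difference of cnu1 minus Col-0 (x axis) against -log10 of limma's adjusted p (y axis) for each of the 27827 loci, with called loci in orange and the threshold of 0.05 as a dashed line. Apart from PMEI5 at 6.73, the called differences lie between -2.14 (COR6.6) and 2.78 (AT3G16660).

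The number of calls depended on single arrays. Without cnu1 C 45 loci were called and without Col-0 A 53, of which 44 and 48 were among the 173. Leaving out cnu1 A, cnu1 B or Col-0 B left 89, 85 and 76 calls, and leaving out Col-0 C left 175, of which 118 were shared. Among named genes other than PMEI5, 39 were called, and 11 of them passed the test in each of the 6 omissions. With the arrays centred on 13 reference genes, every difference shifted by -0.08 on the log2 scale, 76 loci were higher and 114 lower, and the share of higher loci was 40% in place of 57.8%.

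**Figure D2:**
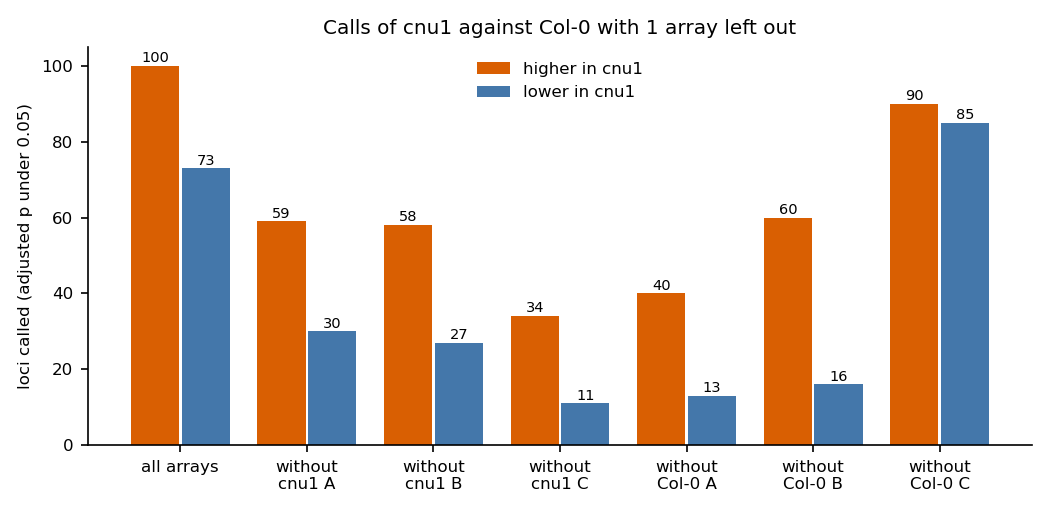
Number of loci called higher (orange) and lower (blue) in cnu1 than in Col-0, with all arrays and with each of the 6 arrays left out in turn. Lower calls fall from 73 to 11 without cnu1 C and to 13 without Col-0 A, and reach 85 without Col-0 C.

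Genes known to respond to sulfur shortage were among those that rose in cnu1. Plants take up sulfate, reduce it through APR enzymes and build it into cysteine, and when sulfur runs short they raise uptake and reduction and cut the use of sulfur in glucosinolates. Of 18 genes on the sulfur shortage list, 5 rose and 0 fell (all loci, 0.359% higher and 0.262% lower), 17 had a difference above 0 (all loci, 50.7%) and 15 did not overlap between genotypes (all loci, 19.6%). The median log2 difference was 0.56, where the median over all loci was 0.00. The summed linear intensity of the list ran from 2778 to 2993 in the Col-0 arrays and from 3874 to 4083 in the cnu1 arrays. That sum ran from 3453 to 3671 in PMEIox, also above the Col-0 arrays, and from 2920 to 2971 in cnu2. List medians of the log2 difference from Col-0 were -0.22 in PMEIox and -0.01 in cnu2, so sum and median differ in direction for PMEIox. Without Col-0 A or without cnu1 C, 3 members rose.

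ATSDI1 (AT5G48850), known as a sulfur deficiency-induced protein that restrains glucosinolate synthesis, read 3.1, 4.19 and 3.62 in Col-0 and 6.19, 6.14 and 6.20 in cnu1. The cnu1 arrays agreed closely and all stood above the highest wild-type array. The log2 difference was 2.54 ± 0.26 (SE, adjusted p = 0.00152), a 5.81-fold higher level. Means were 3.92 ± 0.28 in PMEIox and 3.94 ± 0.44 in cnu2 (SD, n = 3 each), and cnu1 exceeded PMEIox by 2.26 (95% interval 1.69 to 2.83, adjusted p = 0.000248) and cnu2 by 2.23 (95% interval 1.66 to 2.81, adjusted p = 0.00338).

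BGLU28 (AT2G44460), a beta-glucosidase gene used as a marker of low sulfur, read 5.10, 5.42 and 4.65 in Col-0 and 6.50, 6.54 and 6.75 in cnu1. It rose by 1.54 ± 0.19 on the log2 scale (SE, adjusted p = 0.00391), while the differences from Col-0 were -1.0 in PMEIox (adjusted p = 0.0078) and -1.05 in cnu2 (adjusted p = 0.0518). Against PMEIox the level in cnu1 was higher by 2.54 on the log2 scale (95% interval 2.13 to 2.94, adjusted p = 8.01e-06). Thus the wild type lay between cnu1 and the other transgenic genotypes at this gene.

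LSU1 (AT3G49580), whose name stands for response to low sulfur, read 1.98, 2.29 and 2.28 in Col-0 and 4.07, 3.3 and 3.64 in cnu1. Its log2 difference was 1.49 ± 0.17 (SE, adjusted p = 0.00339), but the wild-type level was near background, and against that level cnu1 was at least 1.80-fold higher. The calls of ATSDI1, BGLU28 and LSU1 held in each of the 6 omissions of an array. LSU2 and LSU3, close relatives of LSU1, had log2 differences of 0.57 (adjusted p = 0.0631) and 0.75 (adjusted p = 0.0842) and did not pass.

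Sulfate reduction was represented by APR1 (AT4G04610), which encodes an adenosine phosphosulfate reductase and read 5.33, 5.71 and 5.80 in Col-0 and 6.39, 6.52 and 6.41 in cnu1. The groups did not overlap, and APR1 rose by 0.83 ± 0.15 on the log2 scale (SE, adjusted p = 0.0264) where PMEIox differed from Col-0 by -0.75 (adjusted p = 0.00998). The call of APR1 ended in 5 of the omissions (adjusted p up to 0.117). The fifth called member, named here after its values were seen, was AT5G26220 (GGCT2;1), a gamma-glutamyl cyclotransferase gene of glutathione breakdown, at 0.79 ± 0.15 (SE, adjusted p = 0.0422). Its call ended in 4 omissions, without Col-0 A among them, and with the arrays centred on the reference genes, which left 4 members higher.

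Uptake transporters of the list did not pass the test. SULTR1;2, the main root sulfate importer, read 9.19, 9.45 and 9.37 in Col-0 and 9.87, 9.83 and 9.97 in cnu1, a log2 difference of 0.55 ± 0.11 (SE, adjusted p = 0.053). SULTR1;1 differed by 0.61 (adjusted p = 0.117) and the vacuolar exporter SULTR4;2 by 0.48 (adjusted p = 0.091). SULTR2;1, a transporter of the vascular tissue, was the only member below 0, at -0.28 (adjusted p = 0.295). SLIM1, the transcription factor known to direct the low-sulfur response, differed by 0.15 (adjusted p = 0.612).

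**Figure D3:**
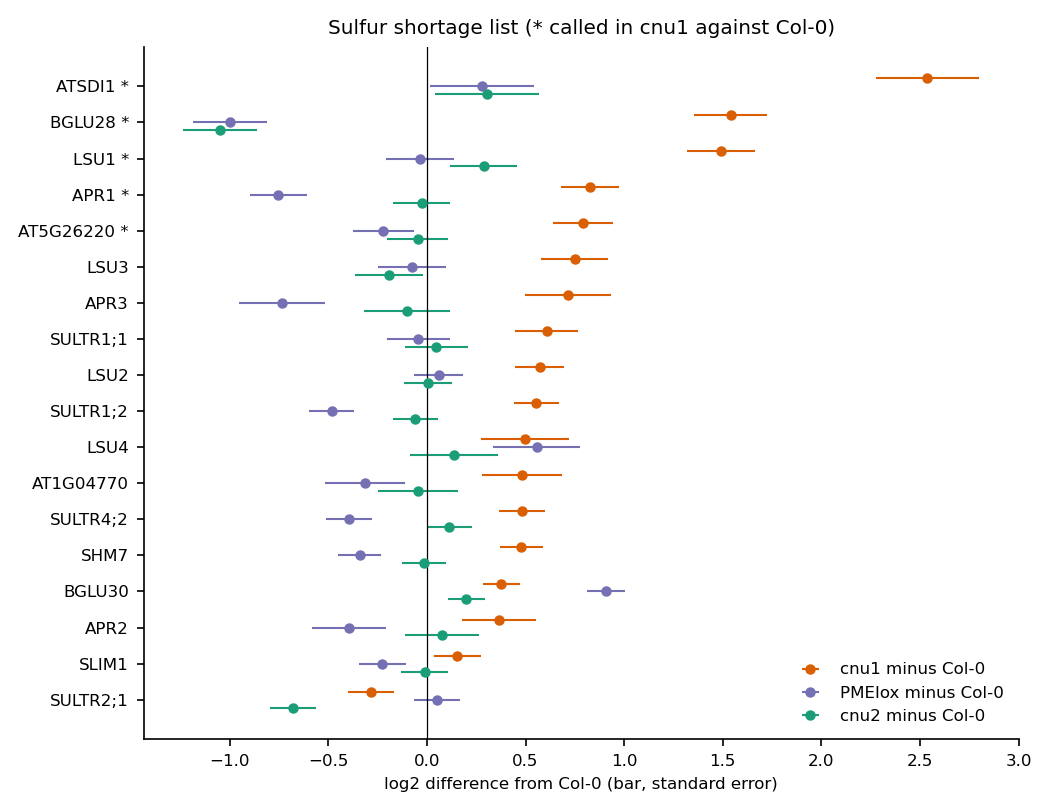
Log2 difference from Col-0 (x axis, points with standard error bars) of the 18 genes of the sulfur shortage list in cnu1, PMEIox and cnu2, with genes called in cnu1 marked by an asterisk. In cnu1, 17 of 18 lie above 0, from 0.15 for SLIM1 to 2.54 for ATSDI1, and SULTR2;1 lies at -0.28.

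Glucosinolates are sulfur-rich defence compounds. Of 26 measured genes of their synthesis and breakdown, 2 fell (all loci, 0.262%) and 0 rose, with a median log2 difference of -0.12. CYP83B1 (AT4G31500), an enzyme of indole glucosinolate synthesis, read 9.24, 9.10 and 9.05 in Col-0 and 8.56 in each cnu1 array, and fell by 0.57 ± 0.10 on the log2 scale (SE, adjusted p = 0.0251). CYP79B3 (AT2G22330), which acts before it in the same pathway, read 6.21, 6.42 and 6.29 against 5.71, 5.73 and 5.57 and fell by 0.64 ± 0.11 (SE, adjusted p = 0.0211). The differences from Col-0 in PMEIox were -0.53 for CYP83B1 (adjusted p = 0.00839) and -0.56 for CYP79B3 (adjusted p = 0.0086), and cnu1 differed from PMEIox by -0.04 (95% interval -0.26 to 0.17) and -0.08 (95% interval -0.31 to 0.15). The regulators of aliphatic glucosinolates MYB28 and MYB29 differed by -0.05 and -0.08 (adjusted p = 0.927 and 0.847), and MYB29 was near background. Outside the list, ESM1 (AT3G14210), known to favour isothiocyanates in glucosinolate breakdown, read 5.66, 5.81 and 5.09 in Col-0 and 4.55, 4.20 and 4.08 in cnu1 and fell by 1.24 ± 0.19 (SE, adjusted p = 0.0141). PMEIox stood at 6.01 ± 0.22 (SD, n = 3) for ESM1, and cnu1 lay below it by 1.73 on the log2 scale (95% interval -2.14 to -1.32, adjusted p = 0.000154). The calls of CYP83B1 and CYP79B3 each ended in 5 omissions and that of ESM1 in 4.

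The largest rises outside the transgene included transporters and a nudix hydrolase. UMAMIT35 (AT1G60050), of a family of amino acid exporters, read 4.52, 5.28 and 5.38 in Col-0 and 7.30, 7.72 and 7.82 in cnu1, a rise of 2.55 ± 0.23 on the log2 scale (SE, adjusted p = 0.000798) or 5.87-fold. NUDT8 (AT5G47240), a nudix hydrolase gene, read 7.32, 7.83 and 7.84 against 9.84, 9.72 and 9.89. Its rise of 2.15 ± 0.15 (SE, adjusted p = 0.000172) had the smallest adjusted p of the comparison, and its means were 7.62 ± 0.21 in PMEIox and 8.13 ± 0.12 in cnu2 (SD, n = 3 each). Directly, NUDT8 in cnu1 exceeded PMEIox by 2.19 (95% interval 1.87 to 2.52, adjusted p = 5.78e-06) and cnu2 by 1.68 (95% interval 1.36 to 2.01, adjusted p = 0.000551). SAG29 (AT5G13170), also called SWEET15, a sugar exporter gene known for its rise in senescing leaves, read 4.07, 4.66 and 4.94 in Col-0 and 6.21, 6.06 and 6.62 in cnu1. It rose by 1.74 ± 0.21 (SE, adjusted p = 0.00369). The calls of UMAMIT35, NUDT8 and SAG29 held in each omission.

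AT3G16660, which the gene table leaves without a name, had the largest rise apart from PMEI5. It read 6.32, 5.71 and 5.45 in Col-0 and 8.60, 8.76 and 8.47 in cnu1, a log2 difference of 2.78 ± 0.26 (SE, adjusted p = 0.000993). In cnu2 it differed from Col-0 by 1.65 (adjusted p = 0.0387) and in PMEIox by 0.72 (adjusted p = 0.152). AT2G31540 rose by 2.41 ± 0.34 (SE, adjusted p = 0.0082) from 3.05, 1.22 and 2.28, near background, to 4.42, 4.67 and 4.68, which is at least 3.23-fold against that level, and its call ended without cnu1 C (adjusted p = 0.055). Other unnamed loci among the 15 largest rises were AT4G10860 (1.73), AT3G28550 (1.69) and AT1G63570 (1.54), together with CCP3 (1.56) and the multicopper oxidase-like gene sks9 (1.44). Of these, AT3G28550 also differed from Col-0 in PMEIox, at 2.27 (adjusted p = 8.98e-05), while AT4G10860 and AT1G63570 differed there by -0.70 and -0.43 (adjusted p = 0.192 and 0.329).

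**Figure D4:**
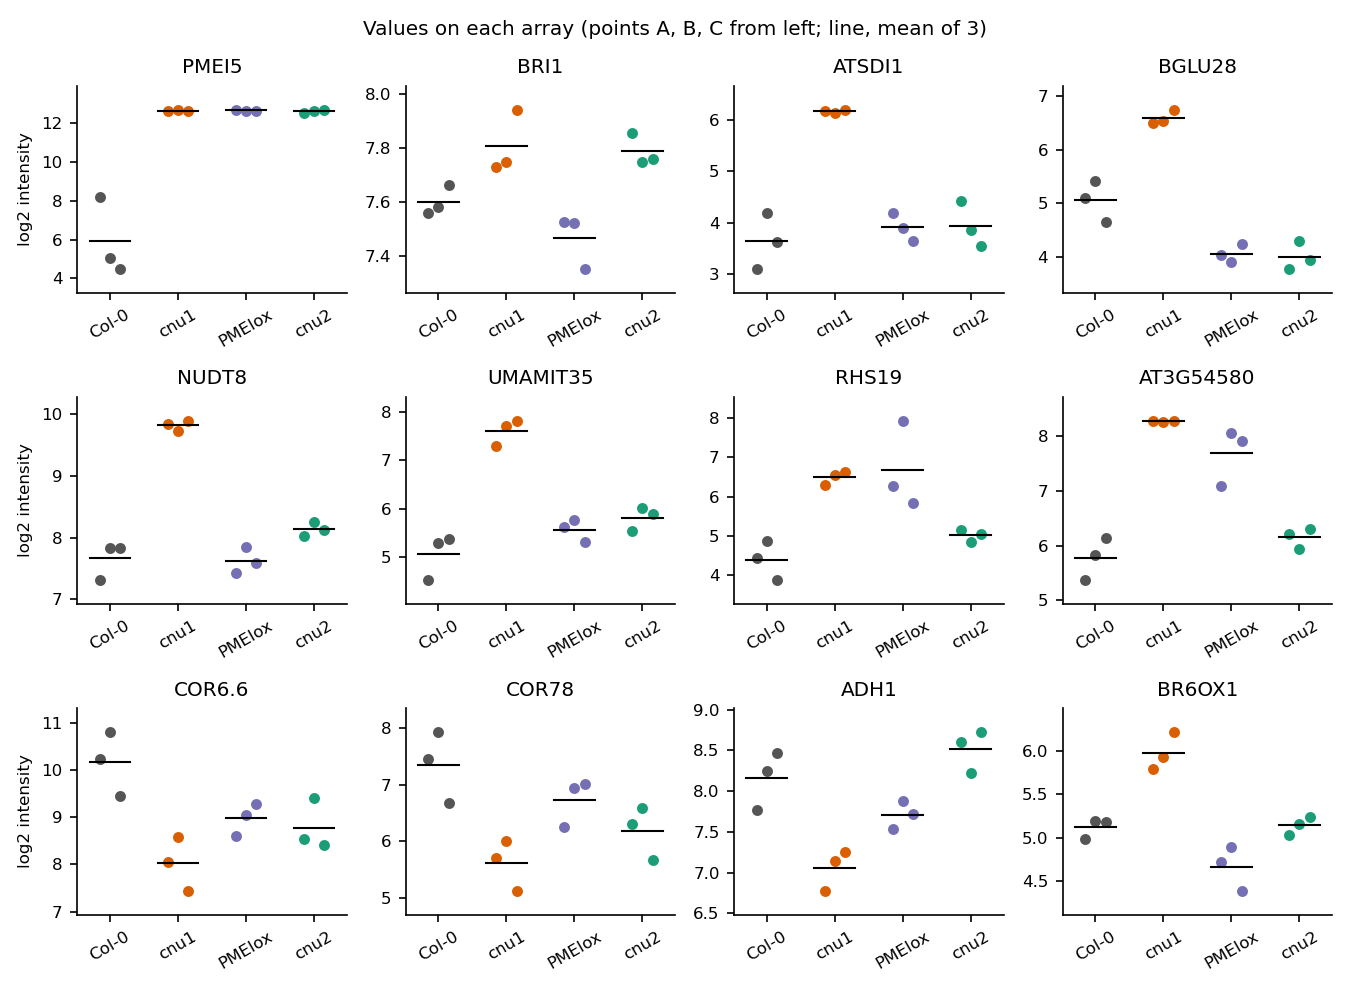
Log2 intensity (y axis, scaled per gene) on each array for 12 named genes, with points for replicates A, B and C from left to right and a line at the mean of each genotype. The cnu1 points of ATSDI1, BGLU28, NUDT8 and UMAMIT35 lie above those of all other genotypes, whereas PMEI5 is alike in cnu1, PMEIox and cnu2 and Col-0 A lies at 8.19.

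Root hair markers gave 1 call among 17 measured (all loci, 0.359% higher). RHS19 (AT5G67400), a peroxidase gene active in root hairs, rose and 0 fell. Of the 17, 15 lay above 0 (all loci, 50.7%), or 14 after reference centring, and the median log2 difference was 0.31. RHS19 read 4.44, 4.85 and 3.87 in Col-0 and 6.30, 6.54 and 6.61 in cnu1, a difference of 2.10 ± 0.42 (SE, adjusted p = 0.0472). This call ended in each of the 6 omissions (adjusted p from 0.0677 to 0.201) and after reference centring (adjusted p = 0.0539). In PMEIox the difference from Col-0 was 2.29 (adjusted p = 0.00687) with a wide spread between arrays (6.68 ± 1.11, SD, n = 3), and cnu1 differed from PMEIox by -0.19 (95% interval -1.10 to 0.71, adjusted p = 0.864). EXT10, a root hair extensin, read 2.92, 3.54 and 2.55 against 4.72, 4.66 and 4.80, a difference of 1.73 that did not pass (adjusted p = 0.0889), and the expansin EXPA18 differed by 0.94 (adjusted p = 0.059). The root hair transcription factors RHD6, RSL2 and RSL4 differed by 0.09, 0.26 and 0.23 (adjusted p = 0.831, 0.395 and 0.574), and RHD6 and RSL2 were near background. Summed linear intensity of the list ran from 391 to 446 in Col-0, from 543 to 619 in cnu1 and from 514 to 873 in PMEIox. The list held 2 higher calls with the 6 arrays alone or without the lowest 40% of loci, and 4 with trended, robust eBayes. It held 0 without Col-0 A or without cnu1 C. The unnamed locus AT3G54580, among the 15 largest rises, read 5.37, 5.83 and 6.14 in Col-0 and 8.27, 8.26 and 8.27 in cnu1, a log2 difference of 2.48 ± 0.24 (SE, adjusted p = 0.000993), and its difference from Col-0 was 1.90 in PMEIox (adjusted p = 0.000613).

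None of 12 general root markers (0 called) passed the limma test, and 3 had an unadjusted p below 0.05, as did 13.9% of all loci. Their median log2 difference was 0.11, and the marker with the smallest adjusted p was the aquaporin gene TIP2;3 at 0.29 (adjusted p = 0.224).

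Of 10 genes of brassinosteroid synthesis 1 rose (all loci, 0.359%) and 0 fell. In limma's test 5 had an unadjusted p below 0.05 (all loci, 13.9%), and 7 did not overlap between genotypes (all loci, 19.6%). Each of the 10 had a difference above 0 (all loci, 50.7%), or 9 with centring on the reference genes, where CPD turned to -0.03, and the median was 0.28 on the log2 scale. BR6OX1 (AT5G38970), a cytochrome P450 of the last steps, read 4.99, 5.19 and 5.18 in Col-0 and 5.79, 5.93 and 6.22 in cnu1 and rose by 0.86 ± 0.14 (SE, adjusted p = 0.0211). Its call ended in 4 omissions, without Col-0 A among them (adjusted p up to 0.109). In PMEIox BR6OX1 differed from Col-0 by -0.45 (adjusted p = 0.0992), and cnu1 exceeded PMEIox by 1.32 (95% interval 1.0 to 1.63, adjusted p = 0.000154).

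Synthesis genes of the list other than BR6OX1 were not called against the wild type. DWF4, which encodes a rate-limiting hydroxylase, read 8.04, 8.03 and 7.95 in Col-0 and 8.48, 8.38 and 8.60 in cnu1, without overlap but with an adjusted p of 0.139 for a difference of 0.48 ± 0.14 (SE). BR6OX2 and CYP90D1 differed by 0.48 and 0.45 (adjusted p = 0.15 and 0.0957). CPD read 9.54, 9.42 and 9.43 against 9.55, 9.61 and 9.38, overlapping values with a difference of 0.05 (95% interval -0.17 to 0.26). For comparison, DWF4 and CPD differed from Col-0 in PMEIox by -1.41 and -1.28, both comparisons sharing the Col-0 arrays.

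Other brassinosteroid lists held no call. Among 7 inactivation genes, 17 signalling genes and 16 growth genes induced by the hormone, limma called 0, and 2, 5 and 7 had an unadjusted p below 0.05 (all loci, 13.9%). Their median log2 differences were 0.05, 0.21 and 0.25, and the first turned to -0.03 with centring on the reference genes. Differences above 0 numbered 4, 16 and 14 (all loci, 50.7%), or 3, 13 and 13 with that centring. Members with the smallest adjusted p were the glucosyltransferase UGT73C5 (-1.07, adjusted p = 0.225), the transcription factor BZR1 (0.30, adjusted p = 0.156) and the growth regulator PRE6 (0.29, adjusted p = 0.118). PRE1, a related growth regulator, read 7.33, 7.79 and 7.45 in Col-0 and 8.04, 7.76 and 8.04 in cnu1, overlapping values with a difference of 0.42 (95% interval 0.06 to 0.79, adjusted p = 0.278), and cnu1 exceeded PMEIox by 2.12 at this gene (adjusted p = 1.36e-05). TCH4, a wall enzyme gene induced by brassinosteroids and touch, read 4.89, 4.68 and 4.80 against 4.66, 4.72 and 4.94, a difference of -0.01 (95% interval -0.33 to 0.31).

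Cell wall genes gave a single call among 8 lists. Of 33 XTH genes, whose enzymes cut and rejoin xyloglucan, 1 rose (all loci, 0.359%) and 0 fell, with a median of 0.10 on the log2 scale. XTH16 (AT3G23730) read 5.03, 4.92 and 5.05 in Col-0 and 5.62, 5.67 and 6.08 in cnu1 and rose by 0.79 ± 0.12 (SE, adjusted p = 0.0171). Its difference from Col-0 was 0.76 in PMEIox (adjusted p = 0.0035) and 0.32 in cnu2 (adjusted p = 0.356), and cnu1 differed from PMEIox by 0.03 (95% interval -0.24 to 0.30). The XTH16 call ended without Col-0 A or Col-0 B (adjusted p up to 0.067).

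Among 14 pectin methylesterases, 10 of their inhibitors other than PMEI5, 13 pectin depolymerases and 12 pectin synthesis genes, limma called 0, and 3, 2, 1 and 2 had an unadjusted p below 0.05 (all loci, 13.9%). Median log2 differences of these lists were 0.13, 0.02, 0.08 and 0.18, and that of the inhibitors turned to -0.06 with centring on the reference genes. Members above 0 numbered 10, 5, 10 and 10 (all loci, 50.7%), or 8, 4, 7 and 10 with that centring. PME17 (0.37, adjusted p = 0.127), the inhibitor gene AT4G25260 (0.36, adjusted p = 0.164), the polygalacturonase ADPG1 (0.69, adjusted p = 0.0741) and the galactan synthase GALS3 (0.27, adjusted p = 0.288) had the smallest adjusted p in their lists. The inhibitor AT4G25260 read 7.55, 7.57 and 7.42 in Col-0 and 7.77, 7.83 and 8.03 in cnu1, without overlap, and lay below PMEIox by 0.47 (95% interval -0.71 to -0.23, adjusted p = 0.0243).

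Among 24 expansins, 11 genes of primary wall cellulose and 16 of secondary wall and lignin, limma called 0, and 8, 0 and 3 had an unadjusted p below 0.05 (all loci, 13.9%). The medians were -0.01, 0.08 and 0.22 on the log2 scale, and COB, a membrane-anchored protein gene needed for oriented cellulose, had the smallest adjusted p of its list (0.22, adjusted p = 0.479). Members above 0 numbered 11, 9 and 14 (all loci, 50.7%), or 11, 6 and 14 after reference centring. IRX12, a laccase gene of lignin formation, read 9.55, 9.22 and 9.04 in Col-0 and 9.36, 9.45 and 9.52 in cnu1, overlapping values with a difference of 0.17 (95% interval -0.18 to 0.52), and stood 1.38 above PMEIox (adjusted p = 0.000262). MYB46, a master regulator of secondary walls, differed by 0.48 (adjusted p = 0.107) and stood 1.05 above PMEIox (adjusted p = 0.000269). Neither monolignol synthesis nor flavonoid genes held a limma call (0 of 14 and 0 of 12, with 1 and 4 at an unadjusted p below 0.05, against 13.9% of all loci). Their medians were -0.06 and -0.12, and C4H at -0.30 (adjusted p = 0.159) and TT7 at 0.65 (adjusted p = 0.0885) had the smallest adjusted p. Only 5 and 3 members of these lists lay above 0, or 1 and 3 after reference centring.

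**Figure D5:**
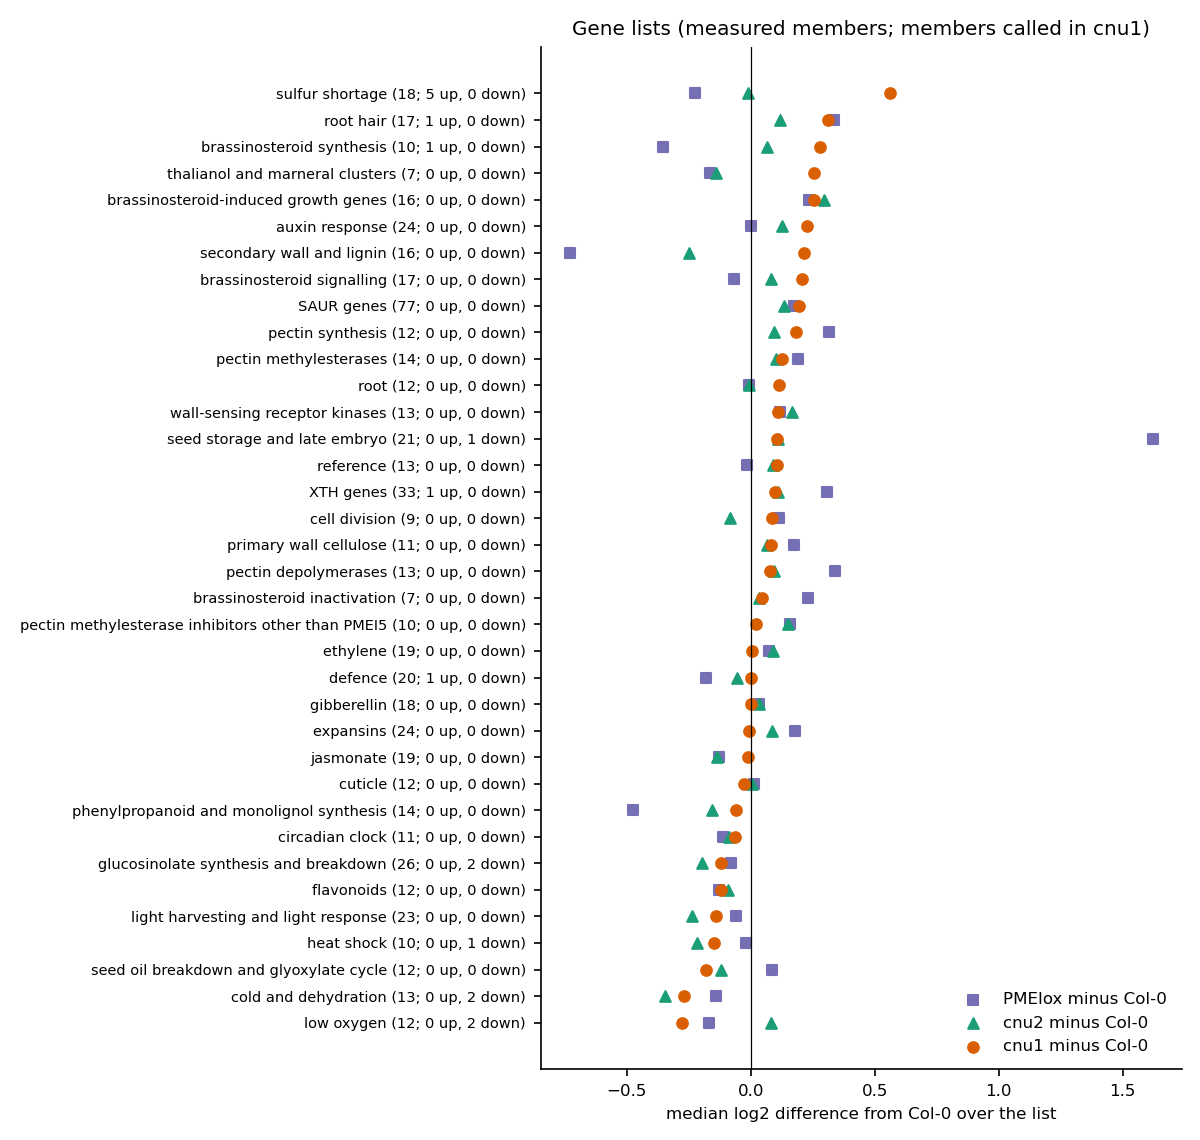
Median log2 difference from Col-0 (x axis) over each of the 36 gene lists in cnu1 (circles), PMEIox (squares) and cnu2 (triangles), with the number of measured members and of members called in cnu1 beside each name. In cnu1 the medians run from -0.28 for low oxygen to 0.56 for sulfur shortage, and the seed storage list lies at 0.11 in cnu1 and 1.62 in PMEIox.

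Seed storage and late embryo transcripts were mostly near the wild type in cnu1, with a median of 0.11 over 21 genes, 0 higher and 1 lower (all loci, 0.262% lower). SESA4 (AT4G27170), a 2S albumin gene, read 6.51, 6.49 and 6.33 in Col-0 and 5.43, 5.27 and 5.78 in cnu1 and fell by 0.96 ± 0.16 on the log2 scale (SE, adjusted p = 0.0216). In PMEIox the same gene was higher than Col-0 by 1.01 (adjusted p = 0.00296), so its levels in cnu1 and PMEIox lay on opposite sides of the wild type. Its relative SESA3 read 6.32, 6.21 and 6.63 against 6.14, 6.17 and 5.76, a difference of -0.36 (95% interval -0.78 to 0.05, adjusted p = 0.428), and stood at 9.88 ± 0.17 in PMEIox (SD, n = 3). The oleosin gene OLEO1, which coats oil bodies, differed from Col-0 by -0.12 (95% interval -0.46 to 0.21).

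Cruciferin genes varied among the cnu1 arrays. CRA1, a 12S globulin gene, read 8.77, 6.77 and 9.78 in cnu1 A, B and C and 6.99, 6.62 and 6.98 in Col-0, so that cnu1 B lay within the wild-type range while A and C lay above it. Its difference of 1.58 ± 0.70 (SE) did not pass (adjusted p = 0.335). CRU3 likewise read 8.20, 6.84 and 8.35 against 6.98, 6.67 and 7.12 (0.88 ± 0.42, SE, adjusted p = 0.383). The SESA4 call ended in 4 omissions, without Col-0 A and Col-0 B among them. Limma called 0 of 12 genes of seed oil breakdown and the glyoxylate cycle, of which 5 had an unadjusted p below 0.05 (all loci, 13.9%) and 10 lay below Col-0 (all loci, 50.7% above). Malate synthase (MLS) differed by -0.61 (adjusted p = 0.134) from Col-0 and by -2.14 from PMEIox (adjusted p = 1.45e-05).

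Of 13 genes of the cold and dehydration response 2 fell (all loci, 0.262%) and 0 rose, and without Col-0 A, without cnu1 C or with the 6 arrays alone 0 fell. With the replicate letter as a block, or without the lowest 40% of loci, 3 fell, and with trended, robust eBayes 4 fell. The median log2 difference was -0.27, and 12 lay below Col-0 (all loci, 50.7% above). COR6.6 (AT5G15970), also called KIN2, a small hydrophilic protein gene induced by cold and abscisic acid, read 10.24, 10.81 and 9.45 in Col-0 and 8.05, 8.59 and 7.44 in cnu1. It fell by 2.14 ± 0.37 on the log2 scale (SE, adjusted p = 0.0251), a 4.41-fold lower level. Its closest relative KIN1 read 3.69, 5.05 and 4.36 against 3.15, 2.31 and 2.46, near background in cnu1, and did not pass (-1.72, adjusted p = 0.0929), and sharing of signal between the copies was not tested. COR78 (AT5G52310), also called LTI78, read 7.45, 7.93 and 6.68 against 5.70, 6.01 and 5.12 and fell by 1.74 ± 0.34 (SE, adjusted p = 0.0439).

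Outside the list RD20 (AT2G33380), a calcium-binding caleosin gene induced by drought, fell by 1.55 ± 0.30 (SE, adjusted p = 0.0439), from 8.24, 8.51 and 7.28 to 6.42, 6.90 and 6.05. At COR6.6, COR78 and RD20 replicate B was the highest and C the lowest array in both genotypes, although the highest cnu1 array stayed below the lowest Col-0 array. The calls of COR6.6, COR78 and RD20 ended without Col-0 A, without Col-0 B, without cnu1 A and without cnu1 C (adjusted p up to 0.13, 0.211 and 0.211), and those of COR78 and RD20 also without cnu1 B. The regulators CBF1, CBF2 and CBF3 stood near background and differed by -0.13, -0.13 and 0.12 (adjusted p = 0.799, 0.847 and 0.679). The dehydrin RAB18 differed by -1.10 (adjusted p = 0.134) and RD29B by -1.12 (adjusted p = 0.162), while COR47 read 10.05, 10.28 and 10.09 in Col-0 and 9.96, 10.25 and 10.18 in cnu1. Differences of COR6.6 and COR78 from Col-0 were also below 0 without passing in PMEIox (-1.19 and -0.63, adjusted p = 0.096 and 0.365) and cnu2 (-1.39 and -1.17, adjusted p = 0.186 and 0.221), and the difference between cnu1 and PMEIox at COR6.6 did not pass (-0.95, 95% interval -1.76 to -0.14, adjusted p = 0.171).

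Further falls among the 15 largest included AT5G54165 (-1.89), AT1G20070 (-1.73), AT5G16980 (-1.41), AT4G28140 (-1.29), AT4G30650 (-1.23) and AT4G39360 (-1.12), which the gene table leaves without names. The phloem lectin-like gene PP2-A6 read 5.58, 5.21 and 5.67 in Col-0 and 4.52, 4.22 and 4.06 in cnu1 (-1.22 ± 0.19, SE, adjusted p = 0.0179). TPPJ (AT5G65140), a trehalose-6-phosphate phosphatase gene, fell by 1.21 ± 0.24 (SE, adjusted p = 0.0433) and differed from Col-0 in PMEIox by -1.44 (adjusted p = 0.00379). Of the 15 largest falls, those of AT1G80130 and AT4G18280 passed the test in each omission, and the other 13 lost their call in at least 2 of them. AT1G80130 read 6.54, 6.66 and 6.59 in Col-0 and 5.24, 5.29 and 5.10 in cnu1 (-1.39 ± 0.13, SE, adjusted p = 0.000993). AT4G18280 read 7.0, 7.21 and 6.98 against 5.69, 5.80 and 5.98 (-1.24 ± 0.15, SE, adjusted p = 0.0037), while PMEIox lay above Col-0 by 0.69 (adjusted p = 0.0173), and cnu1 differed from PMEIox by -1.93 (95% interval -2.25 to -1.61, adjusted p = 1.08e-05).

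Low-oxygen genes gave 2 falls. Of 12 measured genes, ADH1 and HB1 fell (all loci, 0.262% lower) and 0 rose. The median log2 difference was -0.28, and 11 lay below 0 (all loci, 50.7% above), or 12 after reference centring. ADH1 (AT1G77120), the alcohol dehydrogenase of fermentation, read 7.76, 8.24 and 8.47 in Col-0 and 6.78, 7.14 and 7.26 in cnu1 and fell by 1.1 ± 0.19 (SE, adjusted p = 0.0267). HB1 (AT2G16060), a non-symbiotic haemoglobin gene that responds to low oxygen, read 7.97, 8.19 and 8.49 against 7.31, 7.52 and 7.50 and fell by 0.77 ± 0.15 (SE, adjusted p = 0.0365). Both calls held without Col-0 A and ended in the other 5 omissions. The cnu2 arrays stood at 8.52 ± 0.27 for ADH1 and 8.50 ± 0.10 for HB1 (SD, n = 3 each), and cnu1 differed from cnu2 by -1.46 (95% interval -1.88 to -1.04, adjusted p = 0.00597) and -1.06 (95% interval -1.38 to -0.74, adjusted p = 0.00744). PDC1, the pyruvate decarboxylase that supplies ADH1, did not pass against Col-0 (-0.80, adjusted p = 0.169) but differed from cnu2 by -1.49 (adjusted p = 0.0203).

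Heat shock and defence lists held 1 call each (all loci, 0.622%). Of 10 heat shock genes HSP101 (AT1G74310), a disaggregating chaperone, fell by 0.77 ± 0.14 (SE, adjusted p = 0.0356), from 6.04, 6.11 and 6.00 to 5.67, 4.96 and 5.21, and the list median was -0.15. Of 20 defence genes WRKY70 (AT3G56400), a transcription factor of salicylic acid signalling, rose by 0.66 ± 0.11 (SE, adjusted p = 0.0211), from 7.30, 7.47 and 7.26 to 8.02, 7.87 and 8.13, and the list median was 0.00. Differences of WRKY70 from Col-0 were 0.59 in PMEIox (adjusted p = 0.00834) and 0.67 in cnu2 (adjusted p = 0.0447), and cnu1 differed from PMEIox by 0.07 (95% interval -0.17 to 0.31) and from cnu2 by -0.01 (95% interval -0.25 to 0.23). The HSP101 call ended in 5 omissions and the WRKY70 call in 4.

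Hormone lists other than brassinosteroids held no call. Among 24 auxin response genes, 77 SAUR genes, 18 gibberellin, 19 ethylene and 19 jasmonate genes, limma called 0, and 10, 23, 3, 2 and 3 had an unadjusted p below 0.05 (all loci, 13.9%). Medians of the log2 difference were 0.23, 0.20, 0.00, 0.00 and -0.01, and that of the ethylene list turned to -0.07 with centring on the reference genes. Differences above 0 numbered 20, 54, 9, 10 and 9 (all loci, 50.7%), or 19, 48, 8, 7 and 6 with that centring. GH3.3, an auxin-conjugating enzyme gene, differed by 0.70 (adjusted p = 0.104), SAUR24 by 0.48 (adjusted p = 0.0755), GASA14 by 0.42 (adjusted p = 0.0884), the ethylene synthesis gene ACS4 by -0.49 (adjusted p = 0.144) and LOX3 by -0.28 (adjusted p = 0.193). GASA14 and ACS4 differed between cnu1 and PMEIox, by -0.76 (adjusted p = 0.000607) and -1.75 (adjusted p = 1.57e-05).

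In the remaining lists limma called 0 members. These covered 13 wall-sensing receptor kinases, 23 light harvesting and light response genes, 11 clock genes, 12 cuticle genes, 7 genes of the thalianol and marneral clusters, 9 cell division genes and 13 reference genes, of which 1, 4, 4, 1, 1, 0 and 1 had an unadjusted p below 0.05 (all loci, 13.9%). Their median log2 differences ran from -0.14 for light to 0.26 for the triterpene clusters. In the same order, 8, 3, 4, 4, 5, 5 and 10 members lay above 0 (all loci, 50.7%). After reference centring these numbers were 7, 1, 3, 4, 4, 5 and 7, so the light list lay mostly below Col-0. ERU (0.52, adjusted p = 0.261), PORA (-0.65, adjusted p = 0.134), CCA1 (-1.04, adjusted p = 0.0782), CER1 (-0.40, adjusted p = 0.238), MRN1 (0.97, adjusted p = 0.0858), CYCB1;1 (0.31, adjusted p = 0.409) and TUB4 (0.23, adjusted p = 0.344) had the smallest adjusted p in them. CCA1, a morning-phased clock gene, read 8.82, 9.43 and 8.34 in Col-0 and 7.74, 7.89 and 7.84 in cnu1, without overlap. THAD, an enzyme gene of thalianol metabolism, read 7.33, 7.34 and 7.22 against 7.38, 7.0 and 7.56, a difference of 0.02 (95% interval -0.49 to 0.53), and stood 3.23 above PMEIox (adjusted p = 8e-06) and 1.41 above cnu2 (adjusted p = 0.0206).

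Some transcripts with large differences in the line with the transgene alone, chosen here after their values were seen, were near the wild type in cnu1. EB1a (AT3G47690), a gene for a protein of growing microtubule ends, read 6.37, 6.12 and 6.18 in Col-0 and 6.53, 6.64 and 6.71 in cnu1, a difference of 0.40 (95% interval 0.06 to 0.74, adjusted p = 0.266), where PMEIox stood at 9.92 ± 0.36 (SD, n = 3). EARLI1 (AT4G12480), a lipid transfer protein-like gene, read 3.13, 3.80 and 2.77 against 2.85, 2.15 and 3.72, overlapping values with a difference of -0.33 (95% interval -1.14 to 0.49), where PMEIox stood at 7.50 ± 0.19 (SD, n = 3). LAC2, a laccase gene, differed from Col-0 by 0.21 (95% interval -0.20 to 0.62) and from PMEIox by 2.53 (adjusted p = 8.7e-06). A p that misses the threshold does not show that cnu1 and Col-0 are alike at these genes, and the intervals give the differences the arrays allow.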

How the data were processed

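RNA of whole seedlings was hybridised to Affymetrix arrays as biotinylated cRNA, per the labels' protocols. The deposited table holds 1 value per locus and array, read as log2 intensities from their range. The array type, background correction, probe summary, software and genome build are not given in the sources used here. Once sorted, the deposited log2 values did not differ between any of the 12 arrays, and they were used without further normalization. Precision is limited by having 3 arrays a genotype. Of the loci, 27241 were matched to the RefSeq gene table (TAIR10.1, for names and chromosomes only) and 586 were not.

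In limma 3.58.1 under R 4.3.3, lmFit estimated a mean per genotype from all 12 arrays, and eBayes moderated the variances (4.06 prior degrees of freedom beside 8 residual). Tests were two-sided. A call means that the Benjamini-Hochberg value, taken across the 27827 loci, was below 0.05. Contrasts with PMEIox and cnu2 came from the same fit. The procedure was also run on simulated arrays with known changes. Their noise was independent, normal and of equal spread in each genotype, so that run does not bear on week effects or deviating arrays.

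The rule for named genes took PMEI5, BRI1, RLP44, the top 15 loci in either direction by log2 difference (called, with values that do not overlap between genotypes), at most 4 called members per list in order of adjusted p, and, where a list held no call, its member of lowest adjusted p. Other genes are given as list members or are said to be chosen after their values were seen. Members, lists and tests were chosen with earlier results of these data known. The 36 lists hold 615 measured entries (609 loci), and 5 entries were left out for absent, double or unlike names (EXT14, AOP2, SAUR21, SAUR68 and HUP7). A few genes are in 2 lists, such as EXPA18.

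Same-letter arrays of cnu1 and Col-0 were compared by the correlation across loci of their deviations from the genotype means, which was 0.11 for A, -0.01 for B and 0.06 for C, so the letters were not taken as pairs. Alternatives were quantile normalization, median centring, centring on 13 reference genes, leaving out the lowest 40% of loci, a trended, robust eBayes fit (with statmod 1.5.0), weighting of arrays, a fit of the 6 arrays alone, the replicate letter as a block and the omission of each array. Python 3.11.15 with matplotlib 3.10.9 made the figures.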

Additional observations from a re-analysis of the deposited data

How the results depend on the processing

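Quantile normalization and median centring could not change a value, since the sorted values are identical on all 12 arrays, so the 173 calls of cnu1 against Col-0 stood by construction. Centring on the reference genes gave 190 calls (114 lower). Without the lowest 40% of loci there were 439 calls (235 higher, 204 lower), with trend and robust settings 631 (312 higher, 319 lower), and with the 6 arrays alone 55 (43 higher, 12 lower, 33 at least 2-fold). Some lists with 0 calls in the main fit held calls with trend and robust settings. Higher were 4 SAUR, 3 auxin response, 2 brassinosteroid-induced growth and 1 gibberellin gene. The pectin depolymerase, expansin, secondary wall, flavonoid and triterpene cluster lists held 1 higher call each. The flavonoid, seed oil breakdown, light and clock lists held 1 lower call each. Array weights gave 197. With the replicate letter as a block 179 loci were called, 140 of them shared with the 173, and among named genes this block ended 4 calls (AT4G28140, TPPJ, APR1 and HSP101) and added 3 (MYB46, TT7 and MRN1). COR6.6, COR78 and RD20 passed with it, and the sulfur shortage list then held 3 calls. The sulfur shortage list held 7 calls without the lowest 40% of loci and 9 with trend and robust settings. Omitting an array gave from 45 to 175 calls, 34 to 90 higher, 11 to 85 lower and 26 to 78 at least 2-fold. The causes of these shifts were not tested. PMEI5 stayed called in every alternative, with differences from 6.02 to 7.87. Among the 67 genes named by the rule, PMEI5 apart, 0 changed direction in the alternatives run, while other genes close to 0, CPD and THAD among them, changed sign after reference centring. Of the 67, calls ended for 22 with the 6 arrays alone, 25 without cnu1 C and 23 without Col-0 A. Signal over background is not known, so a fold of a called gene against a group near background is given as a bound.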

Other observations

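The genes in this section were picked from the called loci after their values were seen, and no explanation of them was tested.

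The ferritin gene FER1 (AT5G01600), whose protein stores iron in plastids, read 10.98, 10.94 and 10.72 in Col-0 and 9.92, 10.01 and 9.41 in cnu1, and fell by 1.1 ± 0.16 on the log2 scale (SE, adjusted p = 0.0108). FER4 (AT2G40300), another ferritin gene, fell by 0.75 ± 0.12 (SE, adjusted p = 0.0211). In PMEIox the differences from Col-0 were 0.43 and 0.40 (adjusted p = 0.172 and 0.0942), and cnu1 differed from PMEIox by -1.53 at FER1 (adjusted p = 0.000118) and -1.15 at FER4 (adjusted p = 0.000145). CSD2 (AT2G28190), a copper and zinc superoxide dismutase gene of the plastid, read 7.82, 7.72 and 8.0 against 6.94, 7.04 and 6.82 and fell by 0.92 ± 0.16 (SE, adjusted p = 0.0229), a call that ended in each of the 6 omissions of an array. Leaving out Col-0 A ended the FER1 call (adjusted p = 0.0595) and 4 omissions ended that of FER4. Among other falls were the aldolase gene FBA1 (-0.95, adjusted p = 0.0082) and LEA14 (-1.04, adjusted p = 0.00647), both called in each omission, and the starch synthase gene GBSS1 (-1.05, adjusted p = 0.0339), whose call ended in 4.

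Several single genes were picked from the rises. CP1 (AT4G36880), a cysteine protease gene, rose by 1.08 ± 0.15 (SE, adjusted p = 0.00686), and RNS1, a ribonuclease gene induced by phosphate shortage and senescence, rose by 1.2 (adjusted p = 0.00405). The transcription factor genes NAC046 and NAC047 rose by 0.72 and 0.78 (adjusted p = 0.0339 and 0.0489), and the nuclease gene BFN1 by 0.48 (adjusted p = 0.048). AAP2, an amino acid permease gene, read 6.88, 7.07 and 7.05 against 8.02, 7.74 and 7.95 (0.90 ± 0.13, SE, adjusted p = 0.0126). WRKY59 rose by 1.16 (adjusted p = 0.00152) and PBS3, an enzyme gene of salicylic acid synthesis, by 1.14 (adjusted p = 0.0343). CP1, RNS1 and WRKY59 were called in each omission of an array, while AAP2 lost its call in 3 of them and NAC046, NAC047, BFN1 and PBS3 in 5, Col-0 A and cnu1 C among those.

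SVP (AT2G22540), which encodes a repressor of flowering, read 6.65, 6.62 and 6.46 in Col-0 and 5.67, 5.69 and 5.51 in cnu1 and fell by 0.95 ± 0.14 (SE, adjusted p = 0.0118), while PMEIox and cnu2 differed from Col-0 by -0.08 and 0.03. Leaving out cnu1 C, Col-0 A or Col-0 B ended the SVP call (adjusted p up to 0.0769). LRL3 (AT5G58010), a transcription factor gene of root hair growth, rose by 1.35 ± 0.18 (SE, adjusted p = 0.00721) and was called in each omission, and its difference from Col-0 was 1.09 in PMEIox (adjusted p = 0.00425) and 0.32 in cnu2 (adjusted p = 0.551). The neighbouring loci AT5G27889 and AT5G27890 both fell, by 0.94 and 1.0 on the log2 scale, and whether their probes share signal was not tested.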
